A study of Mus musculus with 14 samples.

Results

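The levels of 7 transcripts known from airway club cells were followed in RNA-seq libraries of sorted mouse lung macrophages: Scgb1a1, Scgb3a1, Scgb3a2, Cyp2f2, Bpifa1, Aldh1a1 and Cbr2. They were chosen by gene symbol, and all 7 were found among the 43432 genes of the deposited table. The cells were SiglecF-positive and CD11c-positive, the surface pattern of alveolar macrophages, and came from lungs of male 129S1 mice of 10 to 12 weeks. Bleomycin, a DNA-damaging drug that injures the lung and leads to fibrosis, had been given into the trachea at a labelled dose of 3 U/k, and controls had received water. The 5 groups were MHCII-low cells of controls (2 libraries, labelled replicates 1 and 3), MHCII-low cells 2 weeks after bleomycin, the same sort 4 weeks after it, and MHCII-high cells at each of these 2 times, with 3 libraries in each bleomycin group. MHCII-high cells of controls were not analysed here. The labels do not say whether a library holds 1 mouse or several, so p-values measure the spread between these libraries, which may be partly technical.

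Club cells are secretory cells of the conducting airways. They release secretoglobins, small secreted proteins of which Scgb1a1 is the most abundant in airway fluid, and they carry enzymes that oxidise and reduce inhaled chemicals. They also renew the bronchiolar epithelium after injury. Macrophages are not known as a source of secretoglobins, whereas Cbr2 is also known from some tissue macrophages.

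The members lie apart in the mouse genome. On build GRCm38 (mm10), Scgb1a1 (ENSMUSG00000024653) spans positions 9083636 to 9087958 of chromosome 19 on the reverse strand, in 3 exons, and Cyp2f2 (ENSMUSG00000052974) 27119909 to 27133660 of chromosome 7 on the forward strand. Cbr2 (ENSMUSG00000025150) lies at 120729489 to 120732114 of chromosome 11 on the reverse strand, and Scgb3a1 (ENSMUSG00000064057) at 49663610 to 49665118 of the same chromosome on the forward strand. Aldh1a1 (ENSMUSG00000053279) lies at 20601961 to 20643462 of chromosome 19 and Bpifa1 (ENSMUSG00000027483) at 154142880 to 154149219 of chromosome 2, both on the forward strand. Of the 7 spans, 6 were identical in the GENCODE annotation. For Aldh1a1 GENCODE also has transcripts that start further upstream.

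The promoters of 3 members whose levels moved together, and of Scgb3a1, whose level did not move with them, are shown from RefSeq on GRCm38.p6, with the 250 bases before the start RefSeq gives, read in the direction of the gene. For Cyp2f2, Cbr2 and Aldh1a1 that start lies inside the span given above, so the last bases of these windows overlap it. RefSeq promoters were found for 5 of the 7 members, and of those of Aldh1a1 the one nearest the start in the table is shown. Capitals mark matches to 4 motifs: the forkhead core TGTTTAC, the NKX2-1 core CTCAAG and the C/EBP-like pattern TTGCNNAA, each searched on both strands, and TATAAA on the sense strand.
Cyp2f2, chr7:27119705-27119954, forward strand: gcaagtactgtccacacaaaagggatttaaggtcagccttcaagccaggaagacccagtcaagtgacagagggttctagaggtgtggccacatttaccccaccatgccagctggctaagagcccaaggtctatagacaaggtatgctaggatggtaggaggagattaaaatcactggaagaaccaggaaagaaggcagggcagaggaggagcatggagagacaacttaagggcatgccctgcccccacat
Cbr2, chr11:120732022-120732271, reverse strand: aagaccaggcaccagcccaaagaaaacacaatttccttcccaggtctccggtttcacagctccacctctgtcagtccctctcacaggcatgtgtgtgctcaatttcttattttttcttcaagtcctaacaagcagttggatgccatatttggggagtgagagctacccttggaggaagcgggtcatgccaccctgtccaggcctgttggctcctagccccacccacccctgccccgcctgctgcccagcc
Aldh1a1, chr19:20601718-20601967, forward strand: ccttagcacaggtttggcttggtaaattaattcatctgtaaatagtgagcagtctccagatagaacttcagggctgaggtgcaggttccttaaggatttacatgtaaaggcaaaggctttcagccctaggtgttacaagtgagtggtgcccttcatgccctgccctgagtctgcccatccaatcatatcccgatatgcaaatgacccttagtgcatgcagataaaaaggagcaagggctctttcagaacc
Scgb3a1, chr11:49663345-49663594, forward strand: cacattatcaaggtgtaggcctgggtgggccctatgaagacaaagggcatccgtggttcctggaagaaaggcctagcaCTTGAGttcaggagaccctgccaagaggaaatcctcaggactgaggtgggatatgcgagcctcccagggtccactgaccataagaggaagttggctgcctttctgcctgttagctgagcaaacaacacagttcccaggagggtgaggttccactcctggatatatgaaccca
No match to any of the 4 motifs was found in the windows shown for Cyp2f2, Cbr2 and Aldh1a1. The window of Scgb3a1 held 1 match to the NKX2-1 core, on the opposite strand, 172 bases before the start, and that of Bpifa1 (not shown) held 1 as well. The Bpifa1 window also held TATAAA, 29 bases before the start, and the other Aldh1a1 promoter (not shown) held the C/EBP-like pattern. Among all 32851 RefSeq promoters of this length, 3.2% held the forkhead core, 13.3% the NKX2-1 core, 9.6% the C/EBP-like pattern and 7.6% TATAAA.

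Values are normalized counts, that is, gene counts scaled by 1 factor per library. The whole reads behind them were recovered from the values and summed to between 15106415 and 88059627 per library. The sort markers were read in every library, with Siglecf between 3056.4 and 9550.6 normalized counts, and the summed level of 11 alveolar macrophage genes was between 419485.2 and 769938.0. The CD11c gene Itgax had 25185.0 to 44133.2. The 7 club cell transcripts together had 630.7 to 41085.7. The share of mitochondrial ribosomal RNA differed between libraries, from 3.12% to 28.99%. In bulk RNA, fewer cells of a type and less RNA per cell cannot be told apart.

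Of the 7 transcripts, 5 were read in all 14 libraries and shared 1 pattern of group means: highest in 4-week MHCII-low cells, then controls, and lower in 2-week MHCII-low cells and in both groups of MHCII-high cells. Scgb1a1, which encodes the main secretoglobin of club cells, was the highest. Per kilobase of exon, its mean over the 14 libraries was 19300 normalized counts, above 99.3% of the genes tested, followed by Cyp2f2 (1560), Cbr2 (794), Aldh1a1 (427) and Scgb3a2 (251). Scgb3a1 (28.1) and Bpifa1 (24.1) were low and were at 0 in 6 libraries each. The plot of the 7 transcripts by library shows the common pattern and the spread within groups.

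**Figure D1:**
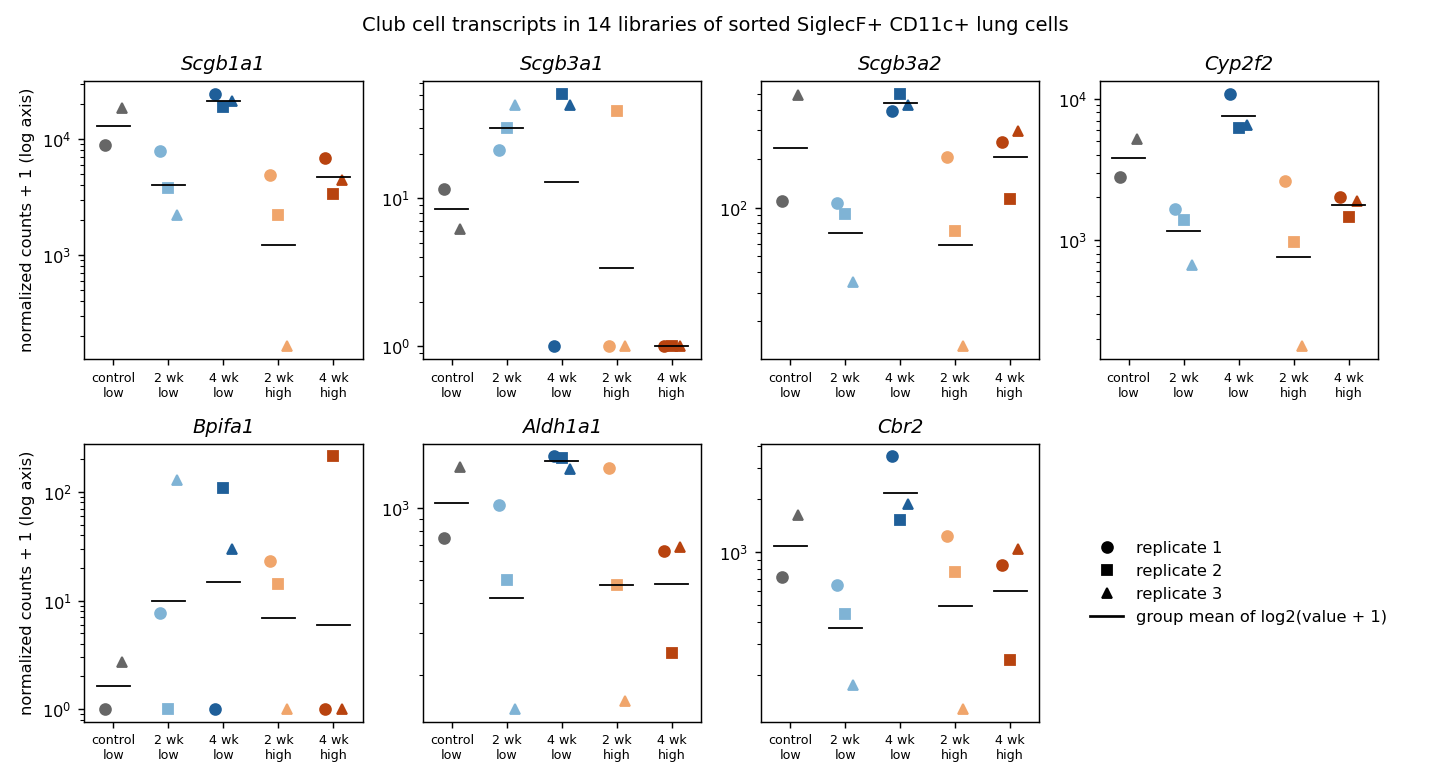
Normalized counts plus 1 (log axis) of each club cell transcript in each of the 14 libraries, by group on the horizontal axis, with the replicate number as the symbol and the group mean of log2(value + 1) as a line. Scgb1a1, Scgb3a2, Cyp2f2, Aldh1a1 and Cbr2 are higher in every 4-week MHCII-low library than in any 2-week MHCII-low or 4-week MHCII-high library, whereas Scgb3a1 and Bpifa1 are at 0 in 6 libraries each.

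Scgb1a1 had 8982.7 and 18598.9 normalized counts in the controls. In MHCII-low cells it had 7925.0, 3767.6 and 2227.8 at 2 weeks (replicates 1 to 3) and 24712.3, 19013.1 and 21293.4 at 4 weeks. In MHCII-high cells it had 4950.8, 2207.7 and 161.6 at 2 weeks and 6834.8, 3332.5 and 4477.8 at 4 weeks. The 3 MHCII-low libraries of 4 weeks were the highest of all 14, and no 2-week MHCII-low library reached a control. The group means fell in the order 4-week MHCII-low (21670 ± 2870, SD), control (13790 ± 6800, n = 2), 4-week MHCII-high (4882 ± 1790), 2-week MHCII-low (4640 ± 2950) and 2-week MHCII-high (2440 ± 2400; n = 3 in each bleomycin group). The last 3 groups overlapped one another. The lowest value, in 2-week MHCII-high replicate 3, rested on 186 recovered reads, and that group spanned a 30.6-fold range.

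Cyp2f2, a cytochrome P450 that activates naphthalene in club cells, followed Scgb1a1 closely. It had 2804.3 and 5171.4 normalized counts in controls. The MHCII-low sort had 1646.7, 1380.6 and 666.8 at 2 weeks but 10845.6, 6238.3 and 6475.9 at 4 weeks. The MHCII-high libraries had 2608.7, 965.8 and 175.5 at 2 weeks and 2020.9, 1457.6 and 1881.7 at 4 weeks. As for Scgb1a1, the 4-week MHCII-low libraries were the 3 highest, and the 2-week MHCII-low libraries were all below the controls. The gene Gm15883 overlaps Cyp2f2 on the other strand. Its level did not exceed 65.7 normalized counts, and without strand information reads from both cannot be told apart.

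Cbr2, a carbonyl reductase, had 716.0 and 1628.8 normalized counts in controls, 651.1, 444.3 and 173.4 in 2-week MHCII-low cells and 3497.1, 1513.8 and 1882.8 in 4-week MHCII-low cells. In MHCII-high cells it had 1226.1, 771.7 and 126.8 at 2 weeks and 842.9, 243.2 and 1038.2 at 4 weeks. Its 2-week MHCII-high libraries overlapped every group but 4-week MHCII-low. Aldh1a1, a cytosolic dehydrogenase that makes retinoic acid from retinaldehyde, had 744.4 and 1474.7 in controls, 1029.2, 495.2 and 142.6 in 2-week MHCII-low cells and 1638.8, 1610.8 and 1453.2 in 4-week MHCII-low cells. Its values in MHCII-high cells were 1458.7, 471.8 and 153.8 at 2 weeks and 655.6, 244.8 and 686.5 at 4 weeks. The 4-week MHCII-low libraries of Aldh1a1 lay within a 1.13-fold range, where the other bleomycin groups spanned 2.8-fold to 9.48-fold. Aldh1a7, a close copy of Aldh1a1, had between 11 and 312.2 normalized counts, so some reads may have been assigned to the wrong copy.

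Among the other secretoglobins, Scgb3a2 (ENSMUSG00000038791; 43764289 to 43767399 of chromosome 18, forward strand) kept to the common pattern at a lower level. It had 107.9 and 492.4 normalized counts in controls, 105.2, 90.8 and 33.6 in 2-week MHCII-low and 391.9, 500.0 and 427.5 in 4-week MHCII-low cells, against 203.8, 70.4 and 13 in 2-week MHCII-high and 251.8, 111.4 and 295.8 in 4-week MHCII-high cells. Scgb3a1, a secretoglobin of larger airways, was at 0 in all 3 of the 4-week MHCII-high libraries, in 2-week MHCII-high replicates 1 and 3 and in 4-week MHCII-low replicate 1. It had 37.7 in 2-week MHCII-high replicate 2, 20.1 to 41.8 in 2-week MHCII-low cells, 50 and 41.6 in 4-week MHCII-low replicates 2 and 3, and 10.5 and 5.2 in controls. Its highest count was 76 recovered reads. Bpifa1, an airway surface protein made mainly in the upper airways, reached 211.8 in 4-week MHCII-high replicate 2, 127.7 in 2-week MHCII-low replicate 3 and 108.8 in 4-week MHCII-low replicate 2. It was at 0 in other libraries of each of these groups, so its values are given without a fold change.

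The comparison of MHCII-low cells between the times gave the largest differences of the 5 transcripts, all toward 4 weeks. Cyp2f2 rose 6.61-fold (log2 fold change 2.72 ± 0.58, SE; adjusted p 0.019) and was the 1 member of 7 that passed an adjusted p of 0.05, where 0.857% of all 17390 genes tested passed in either direction and 0.109% as higher. Scgb3a2 (2.66 ± 0.75, adjusted p 0.13), Cbr2 (2.54 ± 0.65, adjusted p 0.078), Scgb1a1 (2.41 ± 0.73, adjusted p 0.19) and Aldh1a1 (1.90 ± 0.64, adjusted p 0.28) did not pass. The groups did not overlap for these 5 members, with 4 weeks higher. Among all genes tested, 7.22% showed such a separation in that direction. The median log2 fold change was 2.41 over the 7 members and 0.03 over all genes. The call of Cyp2f2 was lost without 2-week MHCII-low replicate 2 or 3 (adjusted p 0.054 and 0.14), without 4-week MHCII-low replicate 1 or 2 (0.14 and 0.055) and with no filter (0.15).

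Against control, the 2-week MHCII-low libraries were lower in 4 of the 7 members without overlap (Scgb1a1, Scgb3a2, Cyp2f2 and Cbr2), which held for 21.6% of all genes. The log2 fold changes were -1.67 ± 0.82 for Scgb1a1, -1.74 ± 0.84 for Scgb3a2, -1.73 ± 0.64 for Cyp2f2, -1.55 ± 0.73 for Cbr2 and -1.32 ± 0.71 for Aldh1a1. Adjusted p-values were between 0.23 and 0.47, and 0 of 7 members passed by limma, edgeR or DESeq2, although 2 had an unadjusted limma p under 0.05. Over all genes, 1.91% passed by limma. Scgb3a1 alone of the 7 was higher than in controls without overlap, as were 13.7% of all genes. At 4 weeks all 7 members had a fold change above 0 against control, as did 44.5% of all genes, with a median of 0.92, but 0 passed by any of the 3 tools and 0 had an unadjusted limma p under 0.05 (0.046% of all genes passed). Scgb1a1 (0.74 ± 0.82, adjusted p 0.95) and Cyp2f2 (1.00 ± 0.64, adjusted p 0.89) were above both controls in each 4-week library, which 11.4% of all genes showed. Both comparisons share the 2 control libraries, which for Scgb3a2 differed 4.56-fold from each other.

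**Figure D2:**
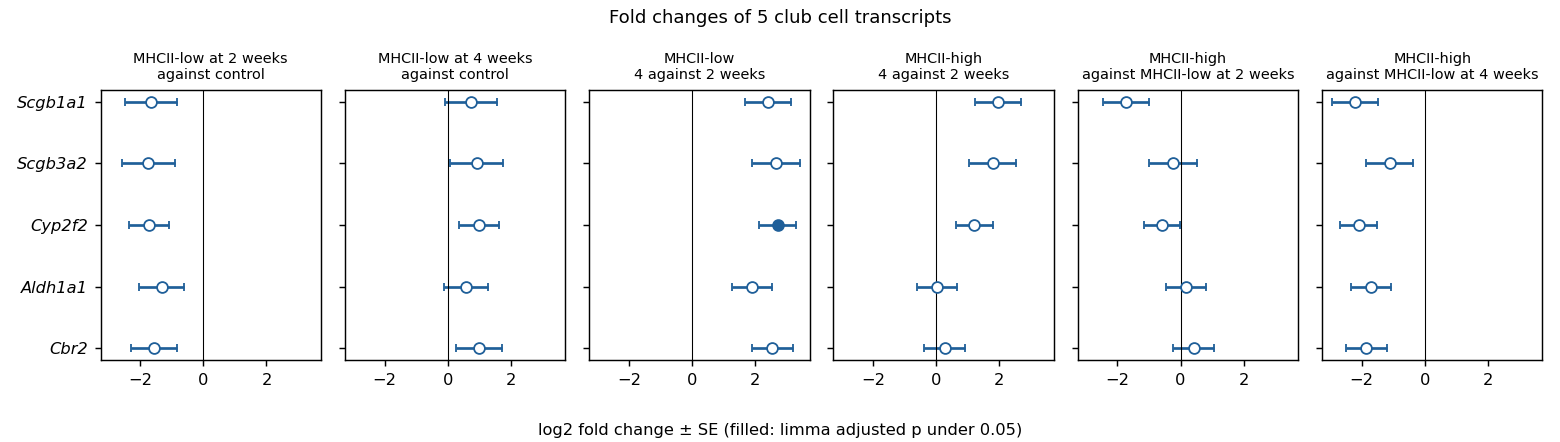
Log2 fold changes (horizontal axis, log2(normalized counts + 1) scale) of Scgb1a1, Scgb3a2, Cyp2f2, Aldh1a1 and Cbr2 in 6 comparisons, with standard errors as bars and filled points where limma's adjusted p was under 0.05. The 1 filled point is Cyp2f2 in MHCII-low cells, 4 against 2 weeks. The 5 points lie below 0 for 2-week MHCII-low cells against control and for MHCII-high against MHCII-low cells at 4 weeks.

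At 4 weeks the same 5 transcripts separated MHCII-high from MHCII-low libraries. All 3 MHCII-high libraries were below all 3 MHCII-low libraries for Scgb1a1, Scgb3a2, Cyp2f2, Aldh1a1 and Cbr2, a separation that 8.13% of all genes showed. All 7 members had a fold change below 0, as did 52% of all genes. The log2 fold changes were -2.21 ± 0.73 for Scgb1a1 (adjusted p 0.13), -2.10 ± 0.58 for Cyp2f2 (0.057), -1.85 ± 0.65 for Cbr2 (0.16), -1.70 ± 0.64 for Aldh1a1 (0.19) and -1.11 ± 0.75 for Scgb3a2 (0.53). None of the 7 members passed by limma, where 2.5% of all genes did and 5 members had an unadjusted p under 0.05. By edgeR on the recovered reads 1 passed, Cyp2f2 (adjusted p 0.041), and by DESeq2 1 passed, Scgb3a1 (0.049), a gene with at most 76 reads in any library. The Cyp2f2 call was also gained with TMM factors (0.04), with library totals (0.041) and with the stricter filter (0.047). With the replicate number as a block, Scgb1a1, Cyp2f2, Aldh1a1 and Cbr2 passed (limma adjusted p 0.00071 to 0.0042). In that fit, on the bleomycin libraries alone, 429 of 17390 genes passed. The labels do not say that a number marks a shared mouse.

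At 2 weeks the members did not separate the MHCII levels in common. No member had groups that did not overlap (12.9% of all genes were higher and 8.26% lower without overlap), and 0 of 7 passed by limma, edgeR or DESeq2 (2 had an unadjusted limma p under 0.05, and 2.87% of all genes passed). Scgb1a1 was -1.74 ± 0.73 (adjusted p 0.24), whereas Scgb3a2 (-0.24 ± 0.75), Cyp2f2 (-0.59 ± 0.58), Aldh1a1 (0.18 ± 0.64) and Cbr2 (0.42 ± 0.65) lay within about their standard error of 0. Without MHCII-high replicate 1 Scgb1a1 passed (-2.76, adjusted p 0.047), and without MHCII-high replicate 3 its fold change was -0.29. Scgb1a1 also passed with the replicate number as a block, described below. Over the mean of both times, Scgb1a1 (-1.97 ± 0.52, adjusted p 0.021) and Cyp2f2 (-1.35 ± 0.41, adjusted p 0.048) were lower in MHCII-high cells, 2 of 7 members, where 7.21% of all genes passed in either direction and 2.21% as lower. The fold changes of all 7 members were below 0, as were those of 48.6% of all genes. Scgb3a1 did not pass (adjusted p 0.053), although it did without 4-week MHCII-low replicate 1 (0.0091), without 2-week MHCII-high replicate 2 (0.014), with TMM factors (0.046) and with library totals (0.045). Also not passing were Aldh1a1 (-0.76 ± 0.45, 0.36), Cbr2 (-0.71 ± 0.46, 0.41) and Scgb3a2 (-0.67 ± 0.53, 0.51). The call of Scgb1a1 was lost without 2-week MHCII-low replicate 1 (0.076) or 4-week MHCII-low replicate 1 (0.052), with the mitochondrial ribosomal RNA share as a covariate (-1.43, adjusted p 0.3), with no filter (0.1) and by DESeq2 (0.077). That of Cyp2f2 was lost in most settings, with adjusted p up to 0.36.

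The difference between the times in how MHCII-high and MHCII-low cells compare was tested as an interaction. It was -2.27 ± 0.92 for Cbr2 (adjusted p 0.74), -1.89 ± 0.90 for Aldh1a1 (0.87), -1.51 ± 0.81 for Cyp2f2 (0.89), -0.87 ± 1.06 for Scgb3a2 (0.97) and -0.46 ± 1.03 for Scgb1a1 (1). No member passed by limma, edgeR or DESeq2, and 0% of all genes passed by limma. All 7 members had values below 0, as did 55% of all genes. At an unadjusted p under 0.05 there were 2 members, Cbr2 and Aldh1a1. Within MHCII-high cells, 4 weeks against 2 weeks, 0 of 7 members passed by the 3 tools (1.07% of all genes by limma), and 3 had an unadjusted limma p under 0.05. Scgb1a1 (1.95 ± 0.73, adjusted p 0.22) and Scgb3a2 (1.79 ± 0.75, 0.27) had the largest values, and Aldh1a1 (0.02 ± 0.64) and Cbr2 (0.27 ± 0.65) were near 0. No member had groups that did not overlap (5.9% of all genes were higher and 9.06% lower without overlap), and for the 5 transcripts 2-week MHCII-high replicate 1 exceeded at least 1 of the 4-week libraries.

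The levels of the 5 transcripts varied together from library to library. Across the 14 libraries, Pearson's r of log2(value + 1) between pairs of them was 0.84 to 0.97 over 10 pairs, and Spearman's rho 0.82 to 0.96. In permutation tests over libraries (two-sided, adjusted over 27 relations), the largest adjusted p of these pairs was 0.00011 for r and 0.002 for rho. Libraries were permuted across the groups, so these p-values also take in differences between groups. Scgb1a1 and Cyp2f2 were the closest pair (r 0.97, rho 0.96), followed by Aldh1a1 and Cbr2 (r 0.94, rho 0.88). Leaving out the 2 libraries farthest from the median left r between 0.73 and 0.95. After the group means were subtracted r was 0.87 to 0.97 (not tested), so libraries of the same group also varied together. For each of the 5, the other 4 ranked between 1 and 19 among 17389 genes ordered by r with it. Scgb3a1 and Bpifa1 did not take part: their r with Scgb1a1 was 0.23 and 0.08 (permutation adjusted p 0.75 and 0.96), at levels where many libraries had few reads or none.

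**Figure D3:**
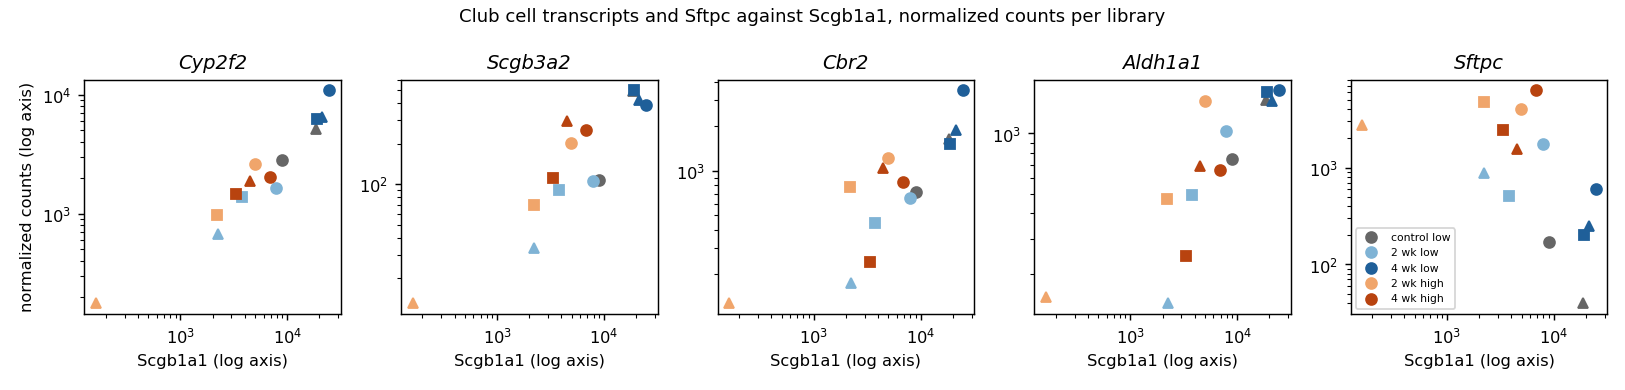
Normalized counts of Cyp2f2, Scgb3a2, Cbr2, Aldh1a1 and the alveolar type 2 gene Sftpc (vertical axes, log) against Scgb1a1 (horizontal axis, log), 1 point per library, with colours for the 5 groups and symbols for replicate numbers as in the plot of single transcripts. Cyp2f2 follows Scgb1a1 with r 0.97 and Cbr2 with r 0.85, whereas Sftpc has r -0.56.

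The proportions among the transcripts differed between libraries. Scgb1a1 made up 60.1% to 69.6% of the summed normalized counts of the 7 members in the 8 MHCII-low libraries, controls included, and 25.6% to 64.4% in the 6 MHCII-high libraries. The MHCII-high shares were 47.3%, 48.6% and 25.6% at 2 weeks and 64.4%, 59.5% and 53.4% at 4 weeks (replicates 1 to 3). The summed level itself spanned 3413.7 to 41085.7 in the MHCII-low and 630.7 to 10606.0 in the MHCII-high libraries. The ratio of Scgb1a1 to Cyp2f2 was 2.28 to 4.81 in MHCII-low and 0.92 to 3.38 in MHCII-high libraries, and that of Scgb1a1 to Cbr2 was 7.07 to 12.85 and 1.27 to 13.7. The lowest of these ratios all came from 2-week MHCII-high replicate 3, the library with the fewest Scgb1a1 reads. Without it, the MHCII-high libraries had Scgb1a1 shares of 47.3% to 64.4%, ratios to Cyp2f2 of 1.9 to 3.38 and ratios to Cbr2 of 2.86 to 13.7. These ratios are descriptions and were not tested.

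Genes with the most similar profiles over the 14 libraries, other than members, were Aox3 (r 0.93) and Gabrp (0.91) for Scgb1a1, 5330417C22Rik (0.95) for Cyp2f2, Gabrp (0.91) for Scgb3a2 and Ces1d (0.92) for Aldh1a1. Gabrp encodes a GABA receptor subunit, Aox3 an aldehyde oxidase and Ces1d a carboxylesterase. Every one of the 3 closest genes of Cbr2 was a member. The closest genes of Scgb3a1 (1700001D01Rik, r 0.87) and Bpifa1 (Ndufa6, r 0.78) were not members, and with 17389 genes to choose from such values carry no test.

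Other genes of the airway secretory cell had fold changes in the same direction, and none passed the test. Of 20 such genes outside the 7 members, 18 were tested. In MHCII-low cells 17 of the 18 were higher at 4 than at 2 weeks (median log2 fold change 2.33, against 0.03 over all genes), and 0 passed. The alcohol dehydrogenase Adh7 had a log2 fold change of 4.81 ± 1.37 (adjusted p 0.14). It was at 0 in all 3 of the 2-week libraries and had 13.7 to 53.2 normalized counts at 4 weeks, so this value depends on the pseudocount. At 4 weeks all 18 were lower in MHCII-high than in MHCII-low cells (median -2.02), again with 0 past the threshold, with Cckar (-3.57 ± 1.00, adjusted p 0.063) and Pon1 (-3.68 ± 1.1, 0.086) first. In the 4-week MHCII-high libraries Pon1 had 1.2 to 6.3 normalized counts, so its value rests on few reads. Against control at 2 weeks, 15 of the 18 were lower in MHCII-low cells (median -1.36), and 0 passed. Of 14 genes of ciliated cells, the neighbours of club cells in the airway, 13 were higher at 4 than at 2 weeks in MHCII-low cells (median 1.06), all 14 were lower in MHCII-high cells at 4 weeks (median -1.92), and 0 passed in either comparison. Of 7 basal and goblet cell genes only Muc5ac had enough counts to be tested, and it did not pass in any comparison.

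Some genes of the alveolar epithelium were called in the other direction. Of 11 alveolar type 2 cell genes, all tested, 5 were called higher in the MHCII-high sort at 2 weeks (Sftpc, Sftpa1, Sftpb, Slc34a2 and Cxcl15). At 4 weeks 4 were called higher (Sftpc, Lamp3, Slc34a2 and Etv5), and 0 were called lower at either time. Among all 17390 genes tested, 398 were called higher in MHCII-high cells at 2 weeks and 341 at 4 weeks. Of 9 alveolar type 1 genes, 1 was called higher in MHCII-high cells at 2 weeks (Cldn18) and 2 at 4 weeks (Hopx and Pdpn). Not all members of these lists took that direction. At 4 weeks 4 type 1 genes had fold changes above and 5 below 0 (median -0.14), 9 type 2 genes above and 2 below, and Sftpb, a surfactant protein, was -0.57 ± 0.4 (adjusted p 0.56). In MHCII-low cells, 4 against 2 weeks, 6 type 2 genes were above and 5 below 0 (median 0.01). Sftpb was 1.53 ± 0.4 (adjusted p 0.086) in that comparison, on the side of 6 of the 7 club cell transcripts. Sftpc, the surfactant protein that defines type 2 cells, had a log2 fold change of 2.03 ± 0.53 (adjusted p 0.038) at 2 weeks and 3.21 ± 0.53 (9e-04) at 4 weeks, MHCII-high against MHCII-low. It was also higher in 2-week MHCII-low cells than in controls (3.47 ± 0.59, adjusted p 0.0017). In that comparison 5 of the 7 club cell transcripts had fold changes below 0 and 2 above. In normalized counts Sftpc had 169.4 and 39.6 in controls, and 4057.6, 4801.2 and 2746.3 in 2-week MHCII-high cells. Its r with Scgb1a1 was -0.56 (rho -0.60; permutation adjusted p 0.077 and 0.061), and 0.26 after the group means were subtracted. The ratio of Scgb1a1 to Sftpc therefore ran from 0.06 in 2-week MHCII-high replicate 3 to 469.67 in control replicate 3.

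Markers of other epithelial cells were read in every group, although the 7 basal and goblet cell genes summed to at most 157.3 normalized counts and to 0 in 2-week MHCII-low replicate 2. The ciliated genes summed to 1407.5 to 5200.3 normalized counts in MHCII-high cells of 2 weeks and 1153.1 to 3028.3 in those of 4 weeks. In MHCII-low cells they summed to 1654.7 to 2702.9 at 2 weeks, 2866.0 to 4291.2 at 4 weeks and 2081.2 and 3161.1 in controls. Large parts of these sums were Sec14l3 and Tppp3, and the group means of Tppp3 were 715.6 to 945.3. In 4-week MHCII-high replicate 3 Sec14l3 had 331.1 and Tppp3 1005.3 of a sum of 1469.1, where Foxj1, Dnah5 and Hydin were at 0. The type 2 genes summed to 15196.9 to 21667.3 and 11974.2 to 19480.6 in MHCII-high cells of 2 and 4 weeks. In MHCII-low cells they summed to 7296.3 to 10493.6 at 2 weeks, 7887.2 to 12143.9 at 4 weeks and 6719.5 and 6728.0 in controls. Of these control sums 4088.2 and 4036.8 were Abca3, whose group means over the 5 groups were 4062 to 4828. Foxj1, which defines ciliated cells, was at 0 in 4-week MHCII-high replicate 3 and otherwise between 18.2 and 277.3. Epcam, the general epithelial surface marker, was between 195.5 and 591.6, and its fold change did not pass in any comparison. Across libraries the r of Scgb1a1 was 0.33 with Foxj1 and -0.42 with Epcam (permutation adjusted p 0.36 and 0.26). It was 0.67 with the sort marker Siglecf (rho 0.78; permutation adjusted p 0.012 and 0.0037), which was lower in MHCII-high cells at 2 weeks (log2 fold change -0.95 ± 0.15, adjusted p 0.00086) and at 4 weeks (-1.02 ± 0.15, adjusted p 0.00039), and 0.05 after the group means were subtracted. With the mitochondrial ribosomal RNA share it was -0.44 and with the recovered depth -0.18 (permutation adjusted p 0.23 and 0.8). The part of epithelial cells or their RNA in the levels of the club cell transcripts was not tested.

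**Figure D4:**
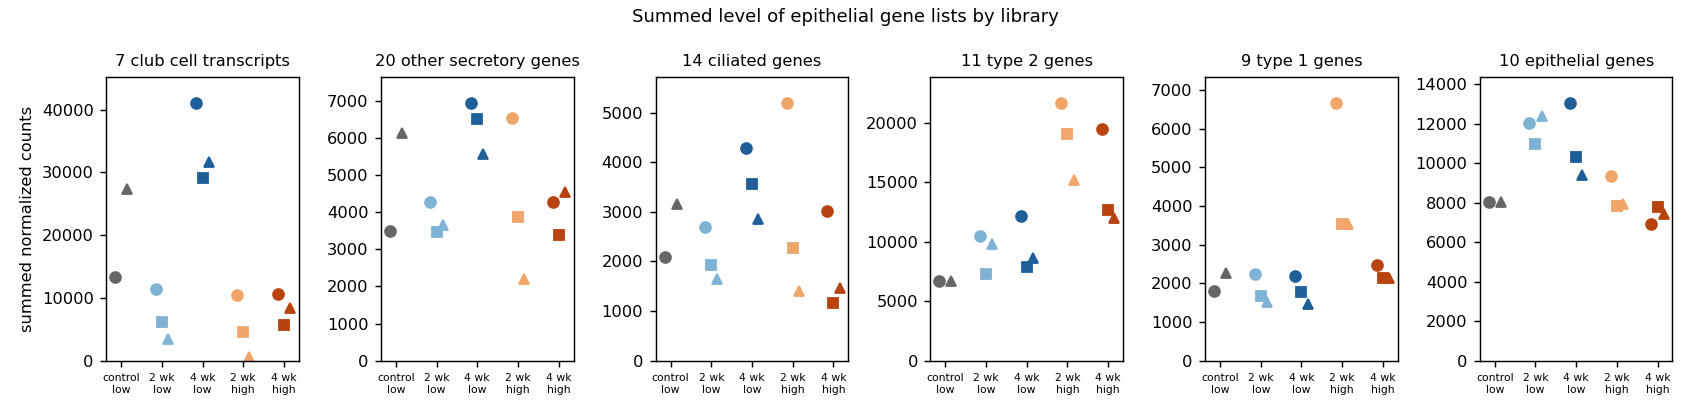
Summed normalized counts (vertical axes, from 0) of the 7 club cell transcripts and of 5 other epithelial gene lists in each library, by group, with replicate numbers as symbols. The club cell sum is highest in the 3 MHCII-low libraries of 4 weeks (29034.8 to 41085.7), whereas the type 2 sum was 11974.2 to 21667.3 in the 6 MHCII-high and 6719.5 to 12143.9 in the 8 MHCII-low libraries. In controls, large parts of the sums are Abca3 (type 2), Por (other secretory), Sec14l3 and Tppp3 (ciliated), and Krt19 and Cdh1 (general epithelium).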

How the data were processed

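The table holds 1 column of normalized counts per library, per the file headers, a signal that the authors deposited. The values show 1 scale factor per library. STAR, DESeq2 and mm10 are named in the submitters' processing notes, with the counting program not given in the sources used here. GC percent and exon length were used as deposited by the authors. Each column holds whole multiples of 1 step (0.3895 to 2.2374), from which reads were recovered. Within the rounding of 0.05, 100% of the low values came out whole. In control replicate 1 the step is close to that rounding, so its reads are the least certain. Per the labels' protocols, cells were sorted on 2 models of sorter, cDNA was amplified, and no molecular identifiers are described.

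The test was limma 3.58.1 with its trend option on log2(value + 1). All 14 libraries entered 1 fit with 1 coefficient per group. A gene was tested if 2 or more libraries had 10 or more normalized counts (17390 genes, all 7 members among them), and p-values were adjusted by Benjamini-Hochberg over all of them in each of 8 comparisons. Adjusted p-values are limma's unless edgeR 4.0.16 or DESeq2 1.42.0, run on the recovered reads, is named. Fold changes understate those of low genes. The ± is the SE after a fold change and the SD after a mean. Fold changes of Scgb3a1 and Bpifa1 are not given, because each was at 0 in 6 libraries, a choice made after their values were seen. Correlations were tested with 100000 permutations in Python (scipy 1.17.1). The fit was tested on simulated data. Named were all members, per list the 1 or 2 genes of smallest p, set defining markers, and the 3 genes most correlated with each member. The members and lists were chosen with earlier results of these data known.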

Additional observations from a re-analysis of the deposited data

How the results depend on the processing

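Of 42 fold changes of single members, recomputed under 11 other settings and without each library in turn (768 values), 25 turned sign, 26 lost and 17 gained a call, and the other 700 kept direction and side of the threshold. The number of members called over the mean of both times, 2, became 1 with a pseudocount of 0.5, with the GC trend removed and by edgeR, and 0 with no filter, with the mitochondrial ribosomal RNA share as a covariate and by DESeq2. It became 3 with TMM factors and with library totals, where Scgb3a1 was added (adjusted p 0.046 and 0.045). It was 0 to 2 without single libraries. For MHCII-high against MHCII-low at 4 weeks, 0 became 1 with the stricter filter, TMM factors, library totals, edgeR and DESeq2. In MHCII-low cells, 4 against 2 weeks, 1 became 0 with no filter and 2 by DESeq2, and it was 0 to 1 without single libraries. At 2 weeks the MHCII comparison gave 0 to 1 without single libraries. The cause was not tested.

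With the replicate number as a block, the 2-week MHCII comparison gave 1 member (Scgb1a1) and the 4-week comparison 4 (Scgb1a1, Cyp2f2, Aldh1a1 and Cbr2, adjusted p 0.00071 to 0.0042). Over the mean of both times it gave 3, with Aldh1a1 added (0.046). These block fits used the bleomycin libraries alone, with the number as a fixed term, so they differ from the main fit in more than the block. Over all genes the calls went from 499 to 487 at 2 weeks, from 434 to 429 at 4 weeks and from 1254 to 1207 over the mean. The labels do not say that a number marks a shared mouse. Over all genes, deviations of same-numbered libraries correlated at 0.01 to 0.11, and those of differently numbered libraries at -0.12 to 0.08. Not every library correlated best with its own number: 2-week MHCII-high replicate 2 had 0.07 with its own and 0.08 with MHCII-low replicate 3. Whether the numbers mark shared mice was not tested.

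Some directions turned. For MHCII-high against MHCII-low at 2 weeks, Aldh1a1 was -0.08 with the GC trend removed, Scgb3a2 was 0.01 with the covariate, 0.3 by edgeR and 0.33 by DESeq2, and Cyp2f2 was 0.01 by DESeq2. Without single libraries Aldh1a1 ranged from -0.63 to 0.99, Cbr2 from -0.24 to 1.40, Cyp2f2 from -1.48 to 0.47 and Scgb3a2 from -1.14 to 0.80. In MHCII-high cells, 4 against 2 weeks, Aldh1a1 was -0.2 with the covariate, -0.41 by edgeR and -0.39 by DESeq2, and Cbr2 -0.04 with the covariate and -0.01 by edgeR. Without single libraries they ranged from -0.79 to 0.83 and from -0.70 to 0.93. The interaction ranged from -1.91 to 0.55 for Scgb1a1 and from -1.90 to 0.03 for Scgb3a2, and 4-week MHCII-low against control from -0.17 to 2.01 for Scgb3a2.

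Over all genes, DESeq2 called 322 where limma called 149 in MHCII-low cells between the times, and library totals gave 93. Over the mean of both times, 870 of 1254 calls were higher, against 623 of 1339 with library totals and 767 of 1401 with TMM factors. Depth limits Scgb3a1 and Bpifa1 most: 1 read was worth up to 2.2374 normalized counts.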

Other observations

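The replicate numbers of the 2-week libraries ordered the club cell transcripts alike in both sorts. Scgb1a1, Scgb3a2, Cyp2f2, Aldh1a1 and Cbr2 were each highest in replicate 1 and lowest in replicate 3, in both sorts, so 5 of 5 had the same order. At 4 weeks 2 of the 5 did, Scgb1a1 and Cyp2f2, with replicate 1 highest and replicate 2 lowest in both sorts. These orders were noticed in the data and were not tested. The 5 transcripts also varied together across libraries, so their orders are not independent.

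Of 10 general epithelial genes, 3 were called in comparisons in which 0 club cell transcripts were. In those comparisons 1.07% to 2.87% of all genes tested passed by limma. Krt19, a keratin of simple epithelia, was lower in MHCII-high cells at 2 weeks (-1.59 ± 0.20, adjusted p 4.4e-05) and at 4 weeks (-1.27 ± 0.20, adjusted p 0.00061). Elf3, an epithelial transcription factor, was lower in MHCII-high cells at 4 weeks (-4.63 ± 1.12, adjusted p 0.028) and did not pass at 2 weeks (3.85 ± 1.12, adjusted p 0.07). It was also lower in MHCII-high cells at 4 than at 2 weeks (-4.77 ± 1.12, adjusted p 0.041). Elf3 was at 0 in all 3 of the 4-week MHCII-high libraries and at 0 to 2.2 normalized counts in 2-week MHCII-low cells. It had at most 76.2 in any library, so these fold changes rest on low counts. Cdh1, the epithelial cadherin, was higher in 2-week MHCII-low cells than in controls (1.01 ± 0.2, adjusted p 0.0069). The ciliated gene Dnah5, an axonemal dynein, was lower in MHCII-high cells at 4 than at 2 weeks (adjusted p 0.046). Its level was 0 in 4-week MHCII-high replicates 2 and 3. This was the 1 call among 14 ciliated genes in the 8 comparisons, and 1.07% of all genes passed between the times in MHCII-high cells. Of 6 tested transcription factors on the airway list, Cebpa alone was called. It was lower in MHCII-high cells over the mean of both times (adjusted p 0.004), where 2.21% of all genes passed as lower. Cebpa had 2011.1 to 5257.9 normalized counts per library, whereas the other tested factors had at most 298.2. Krt19 had 1838.4 to 8395.5 and Cdh1 2618.0 to 6734.6, whereas Epcam had at most 591.6. Which cells the reads of Cebpa, Krt19 and Cdh1 came from was not tested.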
